A study of Oryzias latipes with 20 samples.

Results

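Growth hormone, prolactin and somatolactin belong to 1 family of pituitary hormones, and their transcripts were followed in the medaka (Oryzias latipes) brain over 5 months of constant photoperiod. Growth hormone was taken as the row LOC101171460, described as somatotropin, and prolactin as LOC101172582, described as prolactin-1. Somatolactin was any row described as such, which gave 1 row, LOC100049402. These 3 genes, of 22615 in the deposited table, all exceeded the mean of 1 FPKM required for testing. FPKM are fragments per kilobase, taken relative to all fragments of a library, so levels of different genes can be set side by side.

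In fish, prolactin cells lie in the front of the anterior pituitary, growth hormone cells behind them and somatolactin cells in the intermediate lobe. The transcription factor Pit-1 (pou1f1) is needed for all these cell types. Growth hormone drives growth of the body, largely through insulin-like growth factors, prolactin lets fish hold salts in fresh water, and somatolactin acts on pigment cells, as the colour interfere mutant of medaka shows. The brain stimulates growth hormone cells through growth hormone-releasing hormone and PACAP and restrains them through somatostatin, while dopamine restrains prolactin cells. Receptors of the hormones signal through the kinase JAK2 and the transcription factor STAT5.

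Each library came from a block of pituitary, hypothalamus and ventral telencephalon, so the hormone-making tissue was a part of what was dissected. Samples were taken 0, 7, 30, 60, 90, 120 and 150 days after a transition to conditions abbreviated LW, with 3 libraries per day and 2 at day 60, 20 in all. The photoperiod was constant after that transition, with day 0 at the transition itself. Strain, age and sex were not given in the sources used here. Samples are labelled as separate, without a word on separate fish, so p-values measure only the spread between samples, which may be technical.

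The libraries had total FPKM between 374770 and 405678, and their read depth is unknown. Neuronal markers were high throughout, with snap25 between 886.1 and 1229 FPKM, and pituitary markers were present. The muscle and skin marker summed to at most 1.58 FPKM in any library. Day 60 replicate 1 stood apart: 5 of 6 other pituitary hormone genes and 7 of 9 genes of pituitary regulators were lower there than in any other library. The same held for 3 of 29 genes of the hormones' receptors and pathway and 3 of 20 pituitary-cell receptors. It held for 0 of 20 hypothalamic factors and 0 of 6 neuron markers. The share among all genes was not counted. Results that rest on that library are given with and without it.

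By the mean over all libraries, growth hormone was the most abundant of the family, prolactin the next and somatolactin the least, but the order differed between libraries. Over the 20 libraries growth hormone averaged 2015 ± 1468 FPKM (SD), which put it at rank 4 of 22615 genes. Prolactin averaged 1360 ± 753.6 FPKM, at rank 9, and somatolactin 315 ± 192 FPKM, at rank 159. Growth hormone was below prolactin in 8 of 20 libraries, and by mean on day 0 and day 150. It was below somatolactin in 3 libraries, namely day 0 replicate 3, day 7 replicate 2 and day 150 replicate 1. Somatolactin was above prolactin in 1 library, day 60 replicate 1. Together the hormones took between 0.166% and 1.746% of a library's FPKM. In a bulk sample, fewer cells of a type and less RNA per cell cannot be told apart, and here the amount of pituitary in a block counts too.

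Growth hormone, the hormone of body growth, varied widely between libraries of the same day, most of all at day 7. It stood at 798.45, 1572.8 and 357.18 FPKM on day 0, and at 4305.95, 148.1 and 556.01 FPKM on day 7. It was at 2251.17, 2844.75 and 3163.63 FPKM on day 30, and at 621.3 and 1608.53 FPKM on day 60. The day 30 libraries lay close together and above every library of day 0 and day 60, whereas day 7 held both the lowest of the 20 values and the third highest. Later it was at 1800.46, 3607.34 and 4429.85 FPKM on day 90. It was at 1564.77, 4891.97 and 2117.72 FPKM on day 120, and at 228.32, 2500.82 and 935.93 FPKM on day 150. All day 90 libraries were above all of day 0, while the day 120 and day 150 libraries overlapped with day 0.

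The highest growth hormone value of a day was 29.1 times the lowest at day 7, 10.95 times at day 150, 4.40 times at day 0 and 1.41 times at day 30. Ordered by mean, day 90 (3279 ± 1345 FPKM) came first, followed by day 120 (2858 ± 1783), day 30 (2753 ± 463), day 7 (1670 ± 2292), day 150 (1222 ± 1163), day 60 (1115 ± 698) and day 0 (909 ± 615). Errors are SD with n = 3, or 2 at day 60. Each of the 6 pairs of neighbours in that order overlapped in their values.

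Prolactin, the freshwater hormone, was tighter within days, with the exception of day 60. It was at 2017.1, 1123.97 and 1222.03 FPKM on day 0, at 712.28, 640.65 and 814.91 FPKM on day 7, and at 1420.81, 1965.59 and 1684.07 FPKM on day 30. The day 7 libraries lay below every library of day 0 and of day 30. Replicate 1 of day 60 had 4.79 FPKM and replicate 2 had 1910.14 FPKM. Prolactin stood at 668.61, 1312.63 and 1053.12 FPKM on day 90, at 3512.19, 1451.69 and 1679.23 FPKM on day 120, and at 766.03, 1061.28 and 2181.53 FPKM on day 150. Every day 120 library was above every day 90 library, and day 120 held the highest value of the series.

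By mean, prolactin was highest at day 120 (2214 ± 1130 FPKM), followed by day 30 (1690 ± 272), day 0 (1454 ± 490), day 150 (1336 ± 747), day 90 (1011 ± 324), day 60 (957 ± 1347) and day 7 (723 ± 87.6). All 6 neighbouring pairs overlapped. A second prolactin row, prl, described as a prolactin precursor, was listed at 0 in most libraries and reached 1.94 FPKM at most, in day 150 replicate 1. Its mean of 0.278 FPKM was too low for testing.

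Somatolactin, the hormone of the intermediate lobe, was low at day 7, as prolactin was. It was at 259.75, 290.33 and 370.01 FPKM on day 0, at 86.64, 217.19 and 151.64 FPKM on day 7, and at 285.63, 382.88 and 556.53 FPKM on day 30. The day 7 libraries were again below all libraries of day 0 and day 30. At day 60 it had 24.6 FPKM in replicate 1 and 231.16 FPKM in replicate 2, both lower than any day 0 or day 30 library. It stood at 141.37, 885.56 and 284.24 FPKM on day 90, at 569.19, 427.98 and 251.47 FPKM on day 120, and at 248.24, 241.14 and 390.3 FPKM on day 150. Day 90 held the highest value of the series and also a value below every day 0 library.

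By mean, somatolactin was highest at day 90 (437 ± 395 FPKM), followed by day 120 (416 ± 159), day 30 (408 ± 137), day 0 (307 ± 56.9), day 150 (293 ± 84.1), day 7 (152 ± 65.3) and day 60 (128 ± 146). Only day 150 and day 7 among the neighbours in that order did not overlap.

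**Figure D1:**
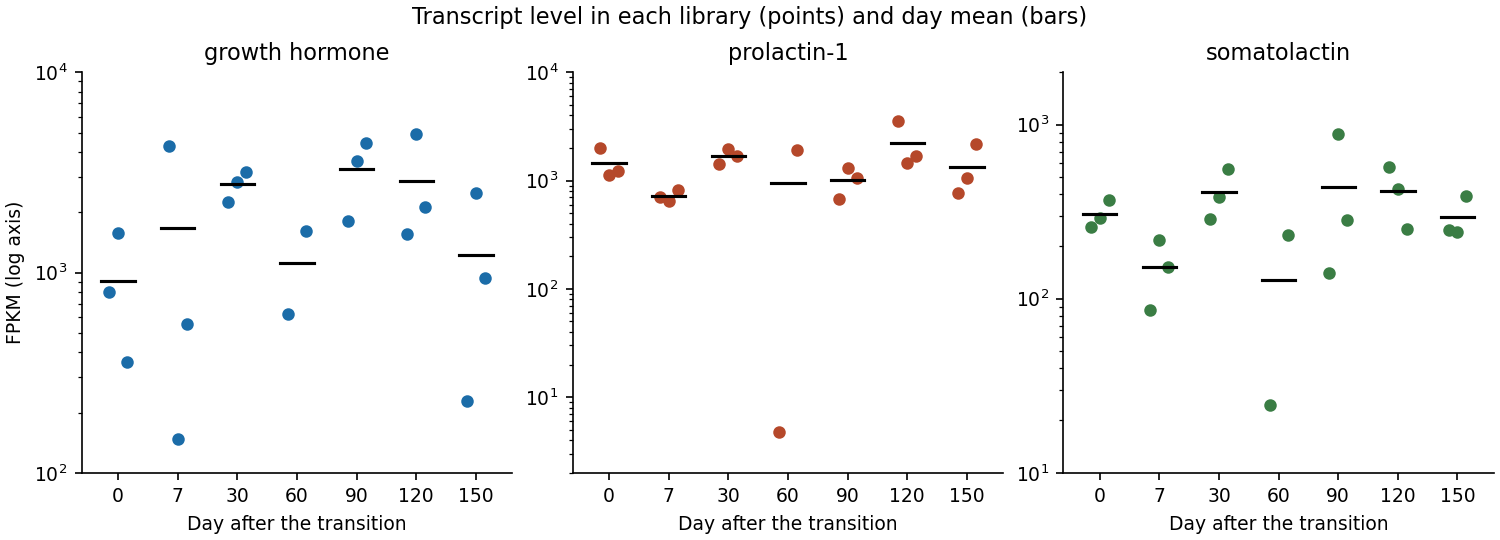
FPKM (log axis) of growth hormone, prolactin and somatolactin against the day of sampling, with 1 point per library and a bar at the day's mean. Growth hormone spreads widely at days 7 and 150, and the prolactin value of 4.79 FPKM on day 60 lies far below the other 19 libraries.

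The day 60 replicate 1 library was low in most of the pituitary transcripts listed, and growth hormone was the exception within the family. Prolactin at 4.79 FPKM compared with a lowest value of 640.65 FPKM in the other 19 libraries, whose median was 274 times as high. Somatolactin at 24.6 FPKM compared with a lowest of 86.64 FPKM elsewhere, and the median of the others was 11.6 times as high. Growth hormone was at 621.3 FPKM there, a level that 4 other libraries fell below, and the median of the others was 2.90 times as high.

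Of 6 genes for hormones of other pituitary cells, 5 were lower in the same library than in any other. The exception, the pro-opiomelanocortin B gene LOC101168338, was at 2.54 FPKM there, against a median of 2.5 FPKM in the others. The melanotropin and corticotropin precursor pomc had 88.56 FPKM, against at least 513.17 FPKM in the others. The thyrotropin beta-like gene LOC101171658 had 0.74 FPKM, against at least 13.31 FPKM, and the gonadotropin subunit lhb had 6.61 FPKM, against at least 20.16 FPKM. The median of the other libraries was 10.5 times as high for the shared subunit cga and 7.48 times as high for fshb, the follicle-stimulating hormone subunit.

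Of the factors that specify pituitary cells, pou1f1 stood at 0.97 FPKM there, against at least 5.06 FPKM elsewhere. The prophet of Pit-1-like gene LOC101168730, which acts before Pit-1 in mammals, had 0.19 FPKM, against at least 2.98 FPKM. The homeobox genes pitx1 and lhx3 had 0.15 and 0.40 FPKM, against at least 2.21 and 3.14 FPKM. By contrast, nr5a1 lay within the range of the other libraries. Neuronal markers summed to 1616 FPKM in that library, within the 1327 to 1709 FPKM of the series. The blood and vessel markers, led by a globin gene, summed to 3833 FPKM, the highest of the 20 libraries. How much pituitary the block held, and what part that or blood had in these values, was not tested.

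**Figure D2:**
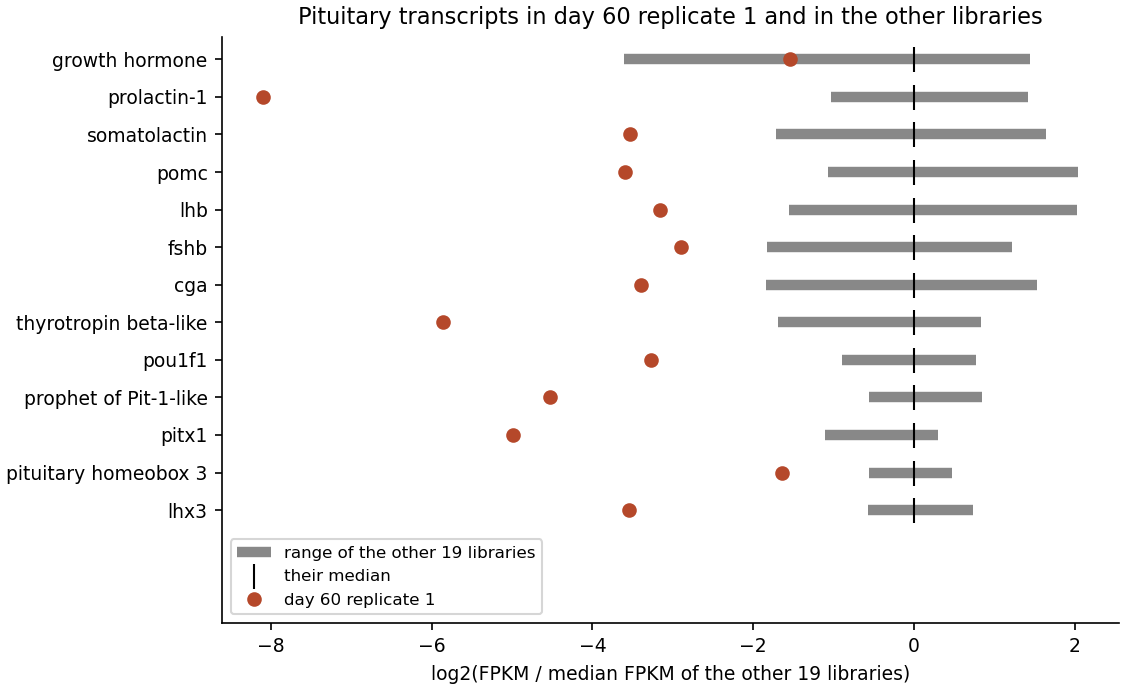
log2 of FPKM over the median of the other 19 libraries, for the family, 5 other pituitary hormones and 5 of the 9 pituitary regulators, all 10 among the genes lower there than elsewhere. Points are day 60 replicate 1 and grey bars are the range of the other 19 libraries; the growth hormone point lies inside its bar and the other points lie to the left of theirs.

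Across libraries, somatolactin and prolactin moved together, while no correlation of growth hormone with either passed the test. Over the 20 libraries, the correlation of somatolactin with prolactin on log2(FPKM + 1) was r = 0.831 (permutation p = 9e-05, adjusted p = 0.00054 over 6 correlations) and rho = 0.711 (adjusted p = 0.00342). With day 60 replicate 1 left out it was r = 0.633 (permutation test, adjusted p = 0.0217, rho = 0.663). Without the libraries farthest from the median somatolactin level, day 60 replicate 1 and day 90 replicate 2, r was 0.731. On deviations from the day means r was 0.754, and 0.505 once day 60 was left out. These were not tested, and the permutations ran over all libraries without regard to day. The pituitary regulator gene lhx3 had r = 0.896 with prolactin and 0.800 with somatolactin over the 20 libraries. Without day 60 replicate 1 these were 0.516 and 0.506. The part of pituitary content in the correlation was not tested.

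Growth hormone and prolactin had r = 0.273 and rho = 0.187 (permutation test, adjusted p = 0.272 for r), or r = 0.279 without day 60 replicate 1. Growth hormone and somatolactin had r = 0.258 and rho = 0.320 (permutation test, adjusted p = 0.272 for r), and r = 0.177 without that library. Leaving out the growth hormone values farthest from its median, day 7 replicate 2 and day 150 replicate 1, gave r of 0.291 and 0.312. These r values miss the threshold, which does not show that the transcripts were independent. That the somatolactin and prolactin correlation was larger than these was not tested.

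The ratio of a pair within 1 library varied least for somatolactin and prolactin, day 60 replicate 1 aside. The ratio of somatolactin to prolactin ran from 0.121 to 0.675 in 19 libraries and was 5.14 in day 60 replicate 1. Growth hormone over prolactin ran from 0.231 to 6.05 in those 19 libraries and was 130 in day 60 replicate 1. Growth hormone over somatolactin ran from 0.682 to 49.7, both ends being at day 7, and was 25.3 in day 60 replicate 1.

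Days 120 and 150 were compared with days 0 and 7 for each ratio, with 6 libraries a side. The log2 ratio of growth hormone over prolactin averaged −0.13 ± 1.45 at the late days and −0.45 ± 1.76 at the early days (SD), a difference of 0.31 (exact permutation test, two-sided, p = 0.729). For somatolactin over prolactin the averages were −2.23 ± 0.46 and −2.28 ± 0.63, a difference of 0.05 (exact permutation p = 0.881). For growth hormone over somatolactin they were 2.09 ± 1.46 and 1.83 ± 2.196, a difference of 0.27 (exact permutation p = 0.803). The smallest p that this design allows is 0.00216, and all adjusted p over the 3 ratios were 0.881. The differences were smaller than the spread between libraries.

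**Figure D3:**
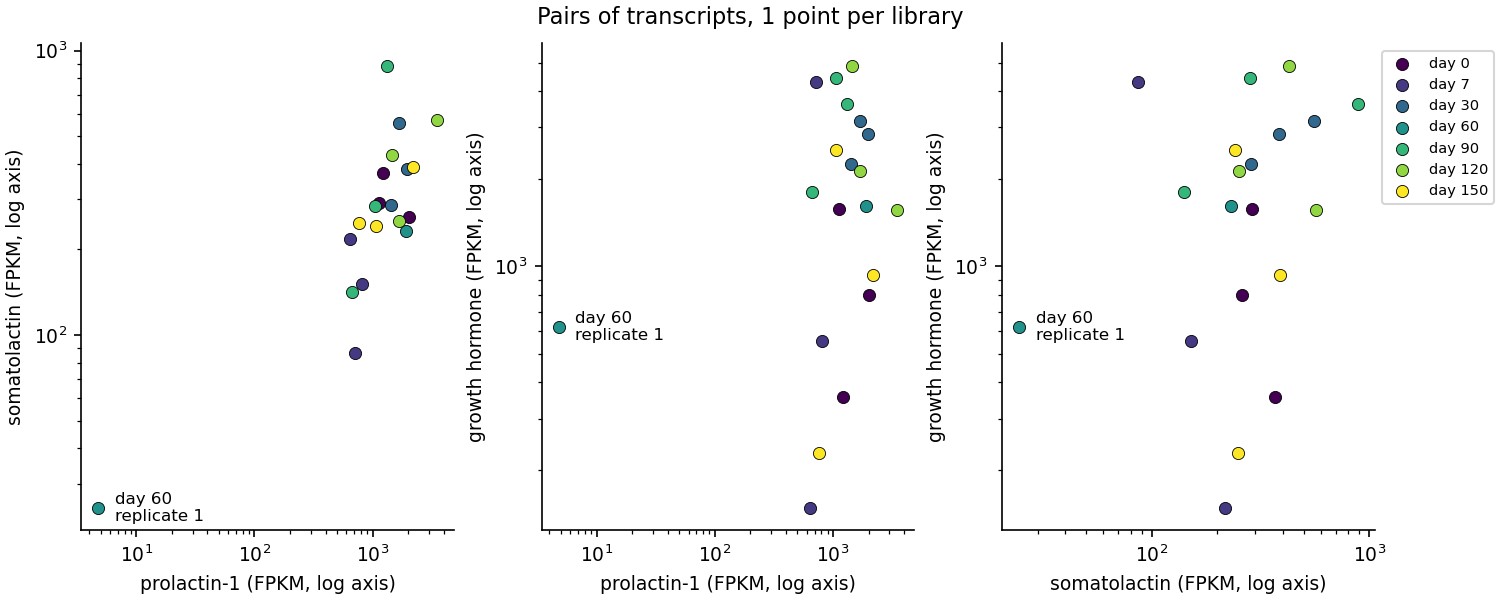
Pairs of hormone transcripts in FPKM (log axes), 1 point per library, coloured by day. Somatolactin and prolactin line up (r = 0.831, or 0.633 without day 60 replicate 1). Day 60 replicate 1 lies at the low end of both, while growth hormone spreads widely at a given level of either.

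With the other pituitary hormones, taken as the median log2(FPKM + 1) of 6 genes, prolactin had r = 0.719, somatolactin r = 0.697 and growth hormone r = 0.481 (permutation test, adjusted p = 0.00246, 0.00288 and 0.0486). Spearman's rho was 0.594, 0.571 and 0.445 (permutation test, adjusted p = 0.0198, 0.0199 and 0.0752). Leaving out day 60 replicate 1 gave r values of 0.508, 0.459 and 0.471, each with adjusted p = 0.0725. Leaving out the 2 libraries farthest from each hormone's median gave r of 0.442, 0.534 and 0.501. Within days and without day 60, r was −0.0034 for prolactin, 0.12 for somatolactin and 0.19 for growth hormone. These last values were not tested. The median of 6 genes is set by the 2 of middle level in a library, so pomc, always the highest, did not enter it. Singly, over the 20 libraries, growth hormone had r = 0.596 with lhb, 0.479 with cga and 0.390 with fshb. It had 0.252 with pomc, 0.074 with the thyrotropin beta-like gene and −0.030 with the pro-opiomelanocortin B gene. These single values were not tested either.

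The genes whose pattern was most like each hormone were taken by Pearson's r of log2(FPKM + 1) over the 20 libraries, as a description. For prolactin they were pitx1 (0.899), lhx3 (0.896), kiaa1324 (0.893), the anion exchange protein 2 gene LOC101167237 (0.888), the prophet of Pit-1-like gene (0.870) and the epithelial cell adhesion molecule gene LOC101169804 (0.850). With day 60 replicate 1 left out, these r values were between 0.398 and 0.592, and none of these genes was among the 6 nearest. In their place grxcr1 (0.816), the carbonic anhydrase 4 gene LOC101161258 (0.773) and the clusterin gene LOC101161210 (0.760) came first. For somatolactin the list began with prolactin and went on with kiaa1324 (0.813), lhx3 (0.800), the carbonic anhydrase 4 gene LOC101161258 (0.788), the glucokinase gene gck (0.782) and txndc11 (0.774). Without day 60 replicate 1, prolactin (0.633) and lhx3 (0.506) were no longer among the 6 nearest to somatolactin, nor were the other 4. The list was then led by a pyruvate dehydrogenase kinase gene, LOC101175202 (0.786), pgbd5 (0.753) and gopc (0.733). Which genes lay nearest to prolactin and somatolactin thus rested on that library.

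Growth hormone had other genes beside it. They were the guanine nucleotide exchange factor gene ngef (0.756), the phosphatase gene cdc14a (0.753), nampt, an enzyme of NAD synthesis (0.726), the exocyst gene exoc8 (0.721), the zinc finger gene LOC105358171 (0.718) and dbh, the enzyme that makes noradrenaline from dopamine (0.712). Without day 60 replicate 1, dbh had the highest r of all genes tested, at 0.811, and ngef and cdc14a followed at 0.774 and 0.754. None of the 6 was among the genes nearest to prolactin or somatolactin. In each of these lists the r values were the highest of 15947 genes, so they were high by selection. Those of growth hormone were not tested.

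The tests asked whether any hormone differed between days. In limma's F test over the 7 days, 0 of 3 hormones passed (adjusted p = 0.527 for growth hormone, 0.508 for prolactin and 0.396 for somatolactin), against 0.0941% of all 15947 genes tested. Over days 7 to 150, 0 of 3 passed too (0.538, 0.471 and 0.356), again against 0.0941% of genes. Leaving out day 60 replicate 2, so that the low replicate 1 stood alone for its day, brought prolactin past the threshold in both tests. A day of 1 library has no spread of its own, so that run cannot show a change at day 60. Leaving out replicate 1 instead gave adjusted p = 0.320 and 0.283. The slope over all days was 0.14 ± 0.17 per 30 days on the log2 scale (standard error) for growth hormone, 0.09 ± 0.22 for prolactin and 0.11 ± 0.12 for somatolactin. None of them passed, against 0.00627% of genes. With the mean level of the 9 pituitary regulators as a covariate, the slope was −0.18 for prolactin and −0.0118 for somatolactin. With day 60 replicate 1 left out too, it was −0.0345 for prolactin and stayed positive for somatolactin.

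Of 36 comparisons between days (12 for each hormone), 0 passed at an adjusted p under 0.05 in limma, and 7 had an unadjusted p under 0.05. Of those 7, 6 involved day 60 and the other was somatolactin at day 30 against day 7. Among all 15947 genes, 1105 had such a p at day 60 against day 0 and 1056 at day 60 against day 30. There were 1223 at day 90 against day 60 and 1332 at day 30 against day 7. Without day 60 replicate 1, 5 had an unadjusted p under 0.05 and 0 passed after adjustment. None of those 5 involved day 60. Those of prolactin were day 7 against day 0, day 30 against day 7, day 120 against day 90, and late against early days. That of somatolactin was day 30 against day 7. All genes were not counted at that unadjusted p without that library. After adjustment, the share of all genes called without it was 0.0501% at day 7 against day 0 and 0.0564% at day 30 against day 7. It was 0.0188% at day 120 against day 90 and 0.094% at late against early days. With all 20 libraries, the share called against day 0 was 0.0627% at day 7, 0% at day 30 and 0.00627% at day 60. It was 0% at day 90, 0.0314% at day 120 and 0% at day 150. At an unadjusted p under 0.05 there were 1377 genes at day 30, 1319 at day 90 and 1532 at day 150. The 6 comparisons share the 3 libraries of day 0.

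Prolactin averaged 723 ± 87.6 FPKM on day 7, against 1454 ± 490 FPKM on day 0, and somatolactin 152 ± 65.3 against 307 ± 56.9 FPKM (SD, n = 3 each). The log2 change against day 0 was −0.96 for prolactin (standard error 1.26, limma adjusted p = 0.872) and −1.09 for somatolactin (standard error 0.68, adjusted p = 0.669). Both lay below day 0 without overlap, as did 8.24% of all genes tested. The prolactin error includes the gap between the day 60 libraries, and without day 60 replicate 1 it was 0.38 (adjusted p = 0.483). Growth hormone overlapped between the days, with a log2 change of −0.11.

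Growth hormone stood higher at days 30 and 90 than at day 0, without passing the test. At day 30 the log2 change was 1.83 (standard error 0.996, limma adjusted p = 0.632), and the values did not overlap, as in the 9.39% of genes that lay higher. At day 90 it was 1.999, again with that error (adjusted p = 0.624), and 8.46% of genes lay higher without overlap. At day 120 the change was 1.72 (adjusted p = 0.618), with overlap. At day 150 it was 0.08. Prolactin and somatolactin overlapped with day 0 on days 30, 90, 120 and 150, with log2 changes between −0.53 and 0.54. With the regulator covariate the changes at days 30 and 120 turned to −1.16 and −1.002 for prolactin and to −0.15 and −0.19 for somatolactin. That of growth hormone at day 150 turned to −0.37. With day 60 replicate 1 left out too, prolactin had −0.12 at day 30 and growth hormone −0.84 at day 150. The other signs did not turn then.

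At day 60 the result depended on 1 library. With both libraries the log2 change against day 0 was −3.74 for prolactin (standard error 1.41, limma adjusted p = 0.653), −1.98 for somatolactin (0.76, adjusted p = 0.663) and 0.38 for growth hormone (1.11). Without replicate 1, replicate 2 alone gave 0.44 for prolactin, −0.39 for somatolactin and 1.07 for growth hormone, with its spread taken as that of the other days. Replicate 1 alone gave −7.92 for prolactin, −3.57 for somatolactin and −0.30 for growth hormone, again with the spread of the other days. Prolactin passed in that run, which rests on 1 low library and cannot show a change at day 60. Somatolactin at day 60 lay below day 0 without overlap, as did 11.5% of genes.

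**Figure D4:**
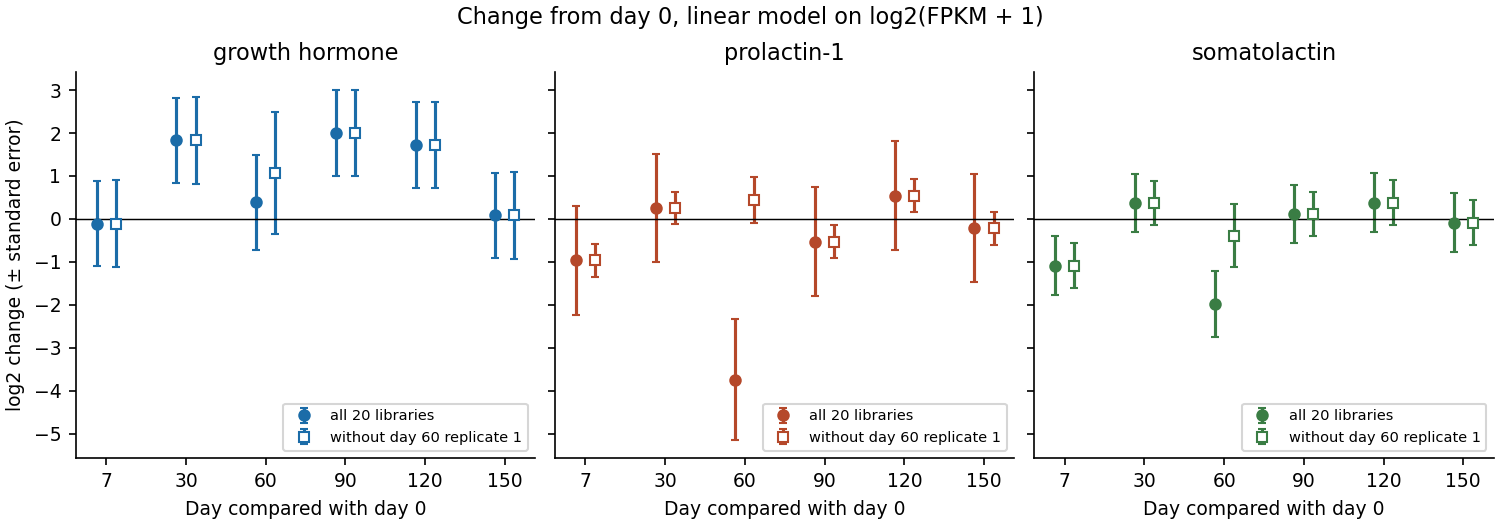
log2 change of each later day against day 0 with its standard error, from limma on log2(FPKM + 1). Filled points use all 20 libraries and open squares leave out day 60 replicate 1; the prolactin value at day 60 is −3.74 with it and 0.44 without it.

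Between days that followed each other, somatolactin was higher at day 30 than at day 7 by 1.46 on the log2 scale (limma adjusted p = 0.594) and prolactin by 1.22 (adjusted p = 0.833). The prolactin standard error was 1.26 here and at day 120 against day 90, and 0.38 in both without day 60 replicate 1. The somatolactin error at day 30 against day 7 was 0.68, and 0.52 without that library. With the regulator covariate the prolactin change turned to −0.35, but its sign did not turn with day 60 replicate 1 left out too. Both lay above day 7 without overlap, as did 8.4% of genes, while 0.0188% were called. Growth hormone at day 30 was 1.94 above day 7, with overlap. At day 60 growth hormone and somatolactin lay below day 30 without overlap, as did 12.7% of genes, with 0.00627% called. Growth hormone at day 90 lay above day 60, as did 12.9% of genes, with 0.0376% called. Prolactin at day 120 was above day 90 by 1.07 without overlap (adjusted p = 0.908), as were 6.66% of genes, with 0.0251% called. With that covariate it was −0.28, and again the sign did not turn with day 60 replicate 1 left out too. Day 150 overlapped with day 120 for every hormone, with log2 changes of −1.64 for growth hormone, −0.76 for prolactin and −0.46 for somatolactin, and 0% of genes were called (1424 at an unadjusted p under 0.05).

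At days 120 and 150 together, the means were 2040 FPKM for growth hormone, 1775 FPKM for prolactin and 355 FPKM for somatolactin. At days 0 and 7 they were 1290, 1088 and 229 FPKM. The log2 changes were 0.96 (standard error 0.70), 0.65 (0.89) and 0.69 (0.48), and 0 of 3 passed (limma adjusted p = 0.605, 0.816 and 0.586), against 0.0627% of genes. The prolactin and somatolactin errors include the gap between the day 60 libraries. Without day 60 replicate 1 they were 0.27 and 0.37, with the log2 changes as before. With the regulator covariate the prolactin change turned to −1.04, but its sign did not turn once day 60 replicate 1 was left out too.

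The spread behind these tests was wide. The residual SD within days on the log2 scale was 1.35 for growth hormone, 1.71 for prolactin and 0.92 for somatolactin, against a median of 0.16 over all genes tested. Prolactin ranked 17, growth hormone 54 and somatolactin 252 of 15947 genes. Among the 539 genes averaging at least 100 FPKM, prolactin ranked 3, growth hormone 4 and somatolactin 6. Without day 60 replicate 1 prolactin had an SD of 0.52 (rank 942) and somatolactin 0.71 (rank 507), while growth hormone had 1.38 (rank 52).

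Of 6 genes for other pituitary hormones, 2 rose at days 120 and 150 against days 0 and 7 and 0 fell, while 9 rose and 1 fell among all genes tested. All 6 changes were positive with a median of 1.12, against a median of 0.02 over all genes. The smallest, of the pro-opiomelanocortin B gene LOC101168338, was 0.0075 (limma adjusted p = 0.9925), below that median of all genes. The share of all genes with a positive change was not counted, here or for the lists below. The luteinizing hormone subunit lhb rose by 1.94 (limma adjusted p = 0.0172) and the shared glycoprotein subunit cga by 2.35 (adjusted p = 0.0338). Neither passed with the regulator covariate (limma adjusted p = 0.0701 and 0.119), and cga did not pass without the filter on low values (0.0636) or with sample weights (0.0536). The lhb level was 214 ± 39.0 and 53.3 ± 18.9 FPKM on days 120 and 150, against 27.0 ± 9.58 and 26.95 ± 5.68 FPKM on days 0 and 7. With 1 library left out, the lhb call was kept in 14 of 20 runs and lost without day 0 replicate 1 or 3, day 7 replicate 2, day 120 replicate 2 or 3, or day 150 replicate 2 (limma adjusted p up to 0.0791). That of cga was kept in 8 of 20 (up to 0.106), being lost without any 1 library of days 7 and 120, day 0 replicate 1 or 3, day 30 replicate 1 or 2, or day 150 replicate 2 or 3. The precursor pomc had 1.12 and the thyrotropin beta-like gene 0.63, neither past the threshold. Against day 0, lhb passed at day 120 (log2 change 2.97, limma adjusted p = 0.0167) but not at day 150 (0.94, adjusted p = 0.4995). It also passed the F tests over the 7 days and over days 7 to 150 (limma adjusted p = 0.0114 and 0.0118). No gene of the other lists passed in any comparison between days.

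Of the 9 pituitary regulators, 8 were positive at the late days with a median of 0.32, and 0 passed. The change of pou1f1, which drives the genes of this family, was 0.32 (limma adjusted p = 0.732), and that of the prophet of Pit-1-like gene 0.64 (adjusted p = 0.265).

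Among 20 hypothalamic factors that act on these cells, 13 were positive at the late days, 0 passed, and the median was 0.09. Growth hormone-releasing hormone (ghrh) averaged 4.72 FPKM over the libraries, and its late change was 0.49 (limma adjusted p = 0.120). Somatostatin-1 (LOC101157910), its opponent, averaged 172 FPKM with a late change of 0.01, and PACAP (adcyap1) 29.9 FPKM with −0.24. The dopamine-making enzyme gene th averaged 10.4 FPKM. Neuropeptide Y (npy), which acts on growth hormone release in fish, was the most abundant of the list at 237 FPKM. The stress peptide gene crh and the galanin gene gal averaged 54.8 and 37.7 FPKM.

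Of 20 receptors for such factors, 9 were positive and 0 passed, with a median of −0.01. The growth hormone-releasing hormone receptor gene ghrhr averaged 8.90 FPKM, the somatostatin receptor 5 gene LOC101165888 11.1 FPKM and the dopamine receptor gene drd2 6.03 FPKM. The PACAP receptor genes LOC101163161 and LOC101159384 averaged 95.1 and 40.3 FPKM. The brain expresses such receptors too, and ghrhr in day 60 replicate 1 was at 7.53 FPKM, within its range of 5.37 to 13.5 FPKM. By contrast, drd2 was at 4.85 FPKM in that library, against at least 5.2 FPKM elsewhere. It was among the 3 of 20 receptors that were lower there than in any other library. The others were another somatostatin receptor 5 gene, LOC101171493, and the gonadotropin-releasing hormone receptor-like gene LOC101167607. They had 0.27 and 0.47 FPKM there, against at least 0.84 and 1.29 FPKM elsewhere.

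Of 29 genes for the hormones' own receptors and their pathway, 15 were positive at the late days and 0 passed, with a median of 0.0038. The receptors were low beside the hormones. The growth hormone receptor entries averaged 4.46 FPKM and 2.44 FPKM (both under the symbol ghr), and the prolactin receptor gene LOC101171416 averaged 2.71 FPKM. Near-identical copies may share reads in such families. The feedback inhibitor genes averaged 30.9 FPKM for LOC101164124 (SOCS2) and 7.17 FPKM for cish, and the signal transducer gene stat3 averaged 18.4 FPKM. Insulin-like growth factor II (igf2) averaged 10.5 FPKM, while igf1, the growth hormone target in liver, was at 0.282 FPKM, too low for testing.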

How the data were processed

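Per the labels' protocols, mRNA was bound on poly-T beads from total RNA treated with DNase, and the libraries were strand-specific and paired. The file deposited by the authors holds FPKM, 1 column per sample, per its header. The submitters' processing notes list Bowtie2 (2.2.5) and RSEM (1.2.12); genome build, annotation, hour of sampling and batch were not given in the sources used here. An FPKM value divides by the library's total, so abundant genes lower the rest, and RSEM shares reads between near-identical copies. Values had 2 decimals. Depth is unknown, since the file holds FPKM, and the number of samples limits the precision. Names were looked up in the RefSeq table of assembly ASM223467v1, which held 21722 of the 22615 identifiers.

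Fits were made on log2(FPKM + 1) with limma (3.58.1, R 4.3.3), which understates changes of low genes. The 15947 genes averaging 1 FPKM or more entered 1 model with a mean per day, a prior variance following the level and 13 residual degrees of freedom. It gave F tests, days against day 0, each day against the one before, and late against early days, two-sided; a second model gave the slope. The Benjamini-Hochberg adjustment ran over all genes tested, with a threshold of 0.05. The fit was tested on simulated data. Ratios within libraries were compared by exact permutation, and correlations by 100000 permutations, with Python (3.11.15), scipy (1.17.1), numpy (2.4.6), pandas (2.3.3) and matplotlib (3.10.9).

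The genes and lists were chosen with earlier results of these data known. 1 gene of the pituitary regulator list is not reported here by name. Named genes were the family, the 6 most correlated with each hormone, list genes past the threshold, and otherwise up to 6 per list by mean. Outside that rule, nr5a1, ghrh, adcyap1, th, ghrhr, drd2, cish, igf1, ghr and LOC101171416 were added for their roles after their values were seen. LOC101171493 and LOC101167607 were added for their low values in day 60 replicate 1. Alternatives were the pseudocount, the filter, 3 rescalings, the prior, sample weights, the spread used, a covariate of 9 pituitary regulators, other forms of slope, and libraries left out. Chosen after seeing the data were the correlations and likeness without day 60 replicate 1, and the covariate without it.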

Additional observations from a re-analysis of the deposited data

How the results depend on the processing

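No paired analysis was possible because the labels give no replicate numbers shared between days. Of the results on the hormones, none passed the threshold over all genes in 11 other settings, with the spread of the compared days only, or with other forms of slope. Signs of several changes turned, large ones of prolactin among them. Quantile normalization gave −0.081 for prolactin at day 30 against day 0, sample weights −0.52 for growth hormone at day 150, and a slope on log2(day + 1) −0.0253 for prolactin. With the pituitary regulators as covariate, prolactin had −1.16 at day 30 and −1.002 at day 120 against day 0, −0.35 at day 30 against day 7, 1.13 at day 60 against day 30, −0.69 at day 90 against day 60, −0.28 at day 120 against day 90, −1.04 at the late days and a slope of −0.18. Growth hormone had −0.37 at day 150, and somatolactin −0.15 at day 30, −0.19 at day 120, −0.24 at day 120 against day 90 and a slope of −0.0118. Without day 60 replicate 1 and day 150 replicate 2, prolactin had 0.44 at day 60, 0.19 against day 30 and −0.97 at day 90 against day 60, growth hormone −0.73 and somatolactin 0.0373 at day 150. The covariate without day 60 replicate 1, chosen after seeing the data, gave prolactin −0.12 at day 30, 0.50 at day 60 and 0.63 against day 30. It also gave prolactin −1.08 at day 90 against day 60 and a slope of −0.0345. Growth hormone then had −0.84 at day 150 and 0.14 at day 60 against day 30. The other signs that the covariate had turned did not turn without that library. The correlations with the other hormones lost their calls without day 60 replicate 1 (0.471 for growth hormone, 0.508 for prolactin and 0.459 for somatolactin), as did growth hormone's after rescaling (0.478). With the covariate, lhb had 1.60 (limma adjusted p = 0.0701) and cga 1.92 (0.119) at the late days, and the cga call was also lost with no filter (0.0636) and with sample weights (0.0536). The cause of these shifts was not tested.

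With each library left out in turn, prolactin's adjusted p ran from 7.56e-05 to 0.575 over the 7 days and from 3.85e-05 to 0.541 over days 7 to 150, the low ends being without day 60 replicate 2, which leaves the low library alone at that day. Its day 60 change ran from −7.92 to 0.44 against day 0, that against day 30 from −8.18 to 0.19, that of day 90 against day 60 from −0.97 to 7.40, and that of day 150 from −0.64 to 0.12. Growth hormone ran from −1.41 to 1.01 at day 7, −0.30 to 1.07 at day 60, −0.73 to 0.998 at day 150 and −0.75 to 0.0709 at day 120 against day 90. Somatolactin ran from −0.59 to 0.72 at day 90, −0.31 to 0.0579 at day 150 and −0.35 to 0.97 at day 120 against day 90. At day 60 against day 30 it ran from −3.95 to −0.76 and passed only without day 60 replicate 2, again with the low library alone. Late minus early log2 ratios ran from −0.0632 to 0.92 for growth hormone over prolactin, −0.10 to 0.19 for somatolactin over prolactin and −0.21 to 1.03 for growth hormone over somatolactin. Depth is unknown.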
